A study of Mus musculus with 20 samples.

Results

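Intermediate filaments are the rope-like part of the cytoskeleton, and which of their genes a cell expresses is a classical sign of what kind of cell it is. The 7 genes described here, of 34083 genes with transcripts in the files, were listed by name, with earlier results of these data known. They are Nefl, Nefm and Nefh, which encode the light, medium and heavy neurofilament subunits, Ina, which encodes alpha-internexin, Prph, which encodes peripherin, Nes, which encodes nestin, and Vim, which encodes vimentin.

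All of these proteins share a central coiled-coil rod through which 2 chains pair, and they differ in the head and tail on either side of it. In mouse neurons Nefm and Nefh cannot build filaments alone and depend on Nefl or Ina, whereas peripherin, vimentin and alpha-internexin can assemble by themselves. Vimentin and nestin are typical of dividing neural progenitors, and nestin needs a partner such as vimentin to form filaments. As neurons mature, Ina and Prph appear early in many of them and the neurofilament subunits become abundant later, Prph mostly in peripheral neurons.

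The cells were N2A (Neuro2A), an established mouse neuroblastoma line, and polyA RNA was sequenced in bulk about an hour after femtosecond laser scanning of whole wells. Batch 1 held 3 libraries each of unexposed cells (NC) and of 4 settings of a single near-infrared laser. I0-E0 had the lowest average intensity and the lowest fluency, which is the energy per area, at a pixel dwelling time of 2 µs. I0-E2 and I0-E4 kept that intensity and held the laser longer, 10 and 20 µs per pixel, for 5 and 10 times the fluency of I0-E0. I2-E2 had 5 times the intensity at 2 µs per pixel and therefore the fluency of I0-E2. Batch 2 held 2 NC libraries and 3 of I3-E3-SRS, a near-burning setting with 8.32 times the intensity and the fluency of I0-E0 at 2 µs per pixel, in which a second laser excited Raman resonance. All cells came from the same line, so the results describe N2A cells and not neurons of an animal. The labels number the libraries and do not name separate cultures as their origin. The paper describes 3 unexposed wells and gives no number of wells for each exposed setting of the sequencing. The p-values thus stand against the spread between libraries alone, which may be that between wells or technical.

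A library held between 5473588 and 12698770 estimated reads. Of 10 genes that mark sympathetic neuroblastoma, 9 averaged at least 1 TPM (transcripts per 1000000, reads scaled for transcript length and library). The summed markers of fibroblasts, glia, macrophages, epithelium and endothelium lay at or below 13.7 TPM in each library. NC replicate 1 of batch 2 stood apart from the rest. In it, 9.22% of reads fell on transcripts shorter than 600 bases, against 3.199% to 4.20% in the other 19 libraries, and these short transcripts took 62.8% of its TPM, against 20.4% to 23.5%. Its TPM values for the filament genes are therefore given apart. I0-E0 replicate 3 had reads on 20042 genes, against 15586 to 17226 in the other libraries, and no filament gene passed without it. CPM (counts per 1000000, reads scaled by TMM within a batch) is not divided by length. In bulk RNA, a change in the number of cells of a kind cannot be told apart from a change in RNA per cell.

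The 7 genes lie on 6 chromosomes of GRCm38. Nefl (chr14:68083863-68089095, plus strand) and Nefm (chr14:68082590-68124846, minus strand) overlap on opposite strands through the long transcript Nefm-202. Nefh lies at chr11:4938754-4948064 on the minus strand, and the remaining genes lie on the plus strand, Ina at chr19:47014698-47025327, Prph at chr15:99055174-99058978, Nes at chr3:87971078-87980451 and Vim at chr2:13573927-13582826. Their coding regions hold 543 codons in Nefl, 848 in Nefm, 1090 in Nefh, 501 in Ina, 475 in Prph, 1820 in Nes and 466 in Vim. The tails account for much of this difference. Codons for lysine, serine and proline in a row, the phosphorylation motif of neurofilament tails, occur 51 times in Nefh, 4 times each in Nefm and Nes, and not in the coding regions of Nefl, Ina, Prph and Vim.

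The end of the rod is a segment known to be alike in intermediate filaments. The 30 coding bases there are shown for 6 of the genes from GENCODE vM21, because they show how close genes with very different levels are. The stretch was located by the amino acids LLEGEE at its end, so the last 6 codons encode the same residues by choice. Nes has no such match and is not shown. Capitals mark the 20 positions at which all 6 agree.
Nefl: gCtTACAGaAAaCTctTgGAaGGcGAaGAG
Nefm: gCgTACAGgAAaCTccTaGAgGGgGAaGAG
Nefh: gCtTACAGaAAgCTccTgGAaGGcGAaGAG
Ina: gCtTACAGgAAgCTccTgGAaGGtGAaGAG
Prph: aCcTACAGgAAgCTacTgGAaGGgGAgGAG
Vim: aCcTACAGgAAgCTgcTgGAaGGcGAgGAG
In Prph these bases are chr15:99057444-99057473 and in Vim chr2:13580204-13580233, in each case inside exon 6 on the plus strand. In the 4 neuronal genes Nefl, Nefm, Nefh and Ina the same stretch is cut by an intron, with 8 bases in one exon and 22 in the next, for Nefh exons 3 and 4 and for Ina exons 2 and 3. Prph and Vim matched at 28 of 30 bases, as did Nefh and Ina and also Nefl and Nefh, and the other pairs matched at 22 to 26. Even so, stretches of 31 bases on the transcribed strand told the genes apart, since 99.46% to 100% of them occurred in no other gene.

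The neurofilament triplet was represented by its heavy subunit alone. Nefl had 0 to 2 reads in each of the 20 libraries, with none in 8 of them, and Nefm had 0 to 3, with none in 10. Pooled over all libraries, Nefl had 17 of 158869676 reads, or 0.107 reads per 1000000 (exact Poisson 95% interval 0.0623 to 0.171, which covers counting error only). Nefm had 14.1 estimated reads, or 0.0888 reads per 1000000 (0.0482 to 0.148). A count of 0 in a library allows up to 3 reads, which is 0.238 to 0.552 reads per 1000000 here. Both genes lay at or below 0.183 TPM in each library, in unexposed and exposed cells alike. They did not pass the filter on low counts, and no difference between groups was detectable at this depth. Only 67.82% of the 31-base words of Nefl and 80.9% of those of Nefm occurred on neither strand of another gene, mostly because each is antisense to the other. Since the strand setting was not given in the sources used here, the few reads of each cannot be assigned with confidence.

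The other 5 genes were expressed in each of the 20 libraries and kept 1 order of TPM, Vim above Prph, Ina, Nefh and Nes. In the 15 libraries of batch 1, Vim ranged from 1689 to 1958 TPM with a median of 1819, and it was between the 65th and the 95th most abundant gene. Prph ranged from 763 to 964 TPM with a median of 868. Ina followed at 77.6 to 109 TPM, Nefh at 43.5 to 51.9 and Nes at 9.82 to 15.6. None of these ranges overlapped its neighbour, so the order held beyond the spread of batch 1. Vim and Prph together thus supplied most filament transcripts, with 62.5% to 66.4% and 28.3% to 31.9% of the summed TPM of the 7 genes.

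**Figure D1:**
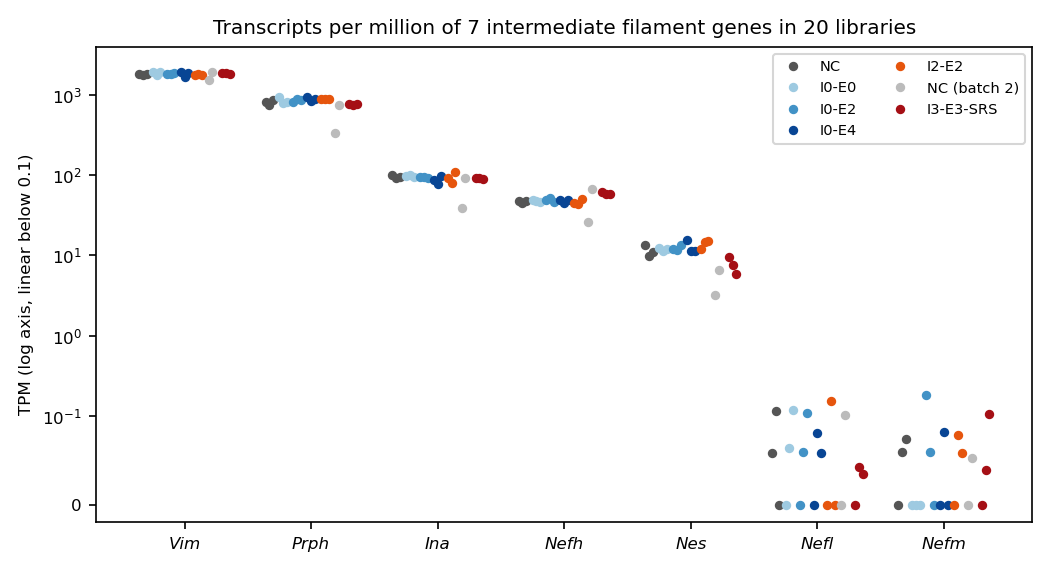
TPM of each of the 7 genes (vertical axis, log scale and linear below 0.1) in the 20 libraries, with 1 point per library coloured by group. Vim and Prph lie highest, Nefl and Nefm lie at or below 0.183 TPM, and the low grey points are NC replicate 1 of batch 2.

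In the 4 libraries of batch 2 other than NC replicate 1, the same order was seen, with Vim taking 65.9% to 68.1% of the summed TPM and Prph 26.2% to 28.4%. NC replicate 1 of batch 2 had 1534 TPM of Vim but 335 of Prph, 39.3 of Ina, 26.3 of Nefh and 3.19 of Nes. Each of these was the lowest of the 20 libraries, whereas by CPM the same library lay within the range of the other 4 libraries of its batch for Vim, Prph, Nefh and Nes and below it, at 188 CPM, for Ina. Its TPM therefore enters only the TPM alternative of the test in batch 2.

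Among other filament genes the lamins were the most abundant, at levels between those of Prph and Nes. Of 14 other intermediate filament genes, 5 averaged at least 1 TPM over the 19 libraries without NC replicate 1 of batch 2, and these were the lamins of the nuclear envelope Lmnb1 (117 TPM), Lmna (80.9) and Lmnb2 (40.4), the vimentin-binding Synm (3.48) and the lens gene Bfsp1 (2.68). Krt5 and Krt18 had no read, and the other keratins, the glial Gfap (0.631 TPM) and the muscle Des (0.688 TPM) were below 1 TPM. Of 13 neuronal markers, 11 averaged at least 1 TPM, led by Uchl1 (1216 TPM), the neuronal tubulin Tubb3 (702) and Stmn2 (277), while Dcx and Rbfox3 did not reach 1 TPM. Of 13 progenitor markers, 9 reached 1 TPM, led by Id3 (270) and Id1 (216), and Sox2 had no read in any library.

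Laser exposure moved none of the filament genes past the test in any comparison. All comparisons with NC in batch 1 share the same 3 NC libraries. With edgeR's quasi-likelihood test and Benjamini-Hochberg adjustment over all genes tested, 0 of the 5 filament genes tested passed an adjusted p of 0.05 in each of 9 comparisons, and so did 0% of all 12296 genes tested in the 7 comparisons of groups of batch 1, 0% of 12031 in batch 2 and 0% of 12182 in the trend on fluency. At an unadjusted p under 0.05 the number of filament genes was 0 of 5 for I0-E0, 0 for I0-E2, 2 for I0-E4, 2 for I2-E2 and 0 for I3-E3-SRS. Over all genes tested these numbers were 413, 413, 973, 884 and 484. On the log2(TPM + 0.5) scale with limma, 0 of the 5 filament genes had an unadjusted p under 0.05 in I0-E4 and 0 in I2-E2. Over all genes tested the numbers on that scale were 827 and 775. DESeq2 and limma-voom called none of the 5 genes either.

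Nes, the progenitor filament, showed the largest estimated difference of the 5 genes. Its CPM in NC was 45.0, 37.4 and 41.3 in replicates 1 to 3, and in I2-E2, the highest intensity of batch 1, it was 47.8, 62.6 and 53.0. All 3 I2-E2 libraries thus lay above all 3 NC libraries by CPM, with I2-E2 replicate 2 highest, on 267 to 448 reads per library. By TPM the groups overlapped, with 12.1, 14.8 and 15.4 in I2-E2 against 13.6, 9.82 and 11.1 in NC, and replicate 3 was highest. The edgeR log2 fold change was 0.39 with an SE of 0.11 and a 95% confidence interval of 0.15 to 0.64. With edgeR its unadjusted p was 0.0031, which ranked it 61st of 12296 genes, and its adjusted p was 0.60. Without any filter on low counts, where the adjustment ran over 25283 genes, the adjusted p of Nes was 0.020 by the same test and it passed, as 160 genes did. Over the other alternatives the adjusted p of Nes was at least 0.262, and without I2-E2 replicate 2 the log2 fold change was 0.29.

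The other settings placed Nes between these groups. I0-E0 had 46.2, 43.1 and 42.7 CPM, I0-E2 had 40.3, 45.9 and 48.7, and I0-E4 had 56.8, 46.9 and 42.3, so that each of these groups overlapped NC. The mean was 41.2 ± 3.78 (SD, n = 3) in NC, 44.0 ± 1.89, 45.0 ± 4.31 and 48.7 ± 7.39 with rising fluency at constant intensity and 54.5 ± 7.49 in I2-E2, and no adjusted p passed. Against I0-E2, which had the same fluency, I2-E2 was 0.27 higher on the log2 scale (SE 0.11, edgeR adjusted p = 0.94) and the groups overlapped. Against I0-E0, which had the same dwelling time, it was 0.30 higher (SE 0.11, edgeR adjusted p = 0.74) and the groups did not overlap by CPM. By TPM I2-E2 and I0-E0 did overlap, at 12.1 to 15.4 against 11.4 to 12.5. Among the 5 groups of batch 1, the edgeR test for any difference gave Nes an adjusted p of 0.98 and an unadjusted p of 0.029. In that test Nes was the only one of the 5 genes with an unadjusted p under 0.05, beside 520 of all 12296 genes tested.

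**Figure D2:**
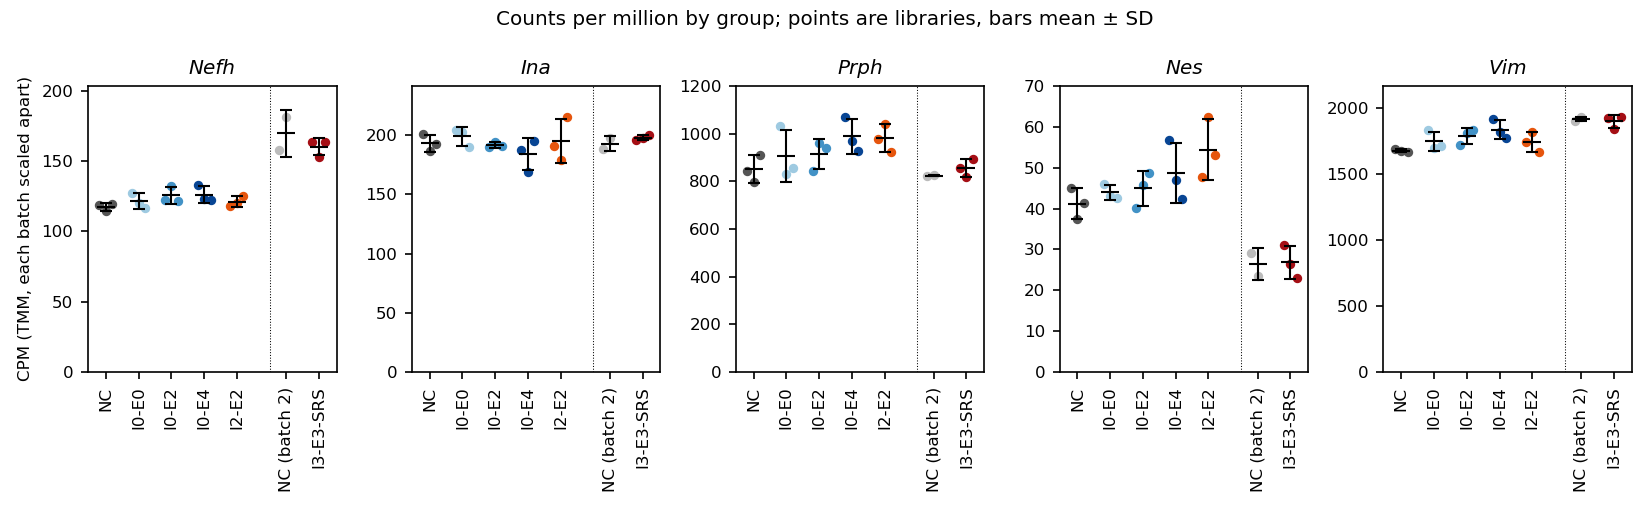
CPM of the 5 tested genes by group, with points for libraries and bars for the mean ± SD (n = 3, and n = 2 for NC of batch 2), and a dotted line between the batches, which were scaled apart. Nes in I2-E2 lies between 47.8 and 62.6 CPM, above the 37.4 to 45.0 of NC in batch 1.

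Prph, the filament of peripheral neurons, had its highest means of batch 1 in the settings of highest fluency and highest intensity. NC had 843, 797 and 913 CPM. I0-E4 had 1073, 968 and 927, and I2-E2 had 979, 1043 and 924, so neither group overlapped NC by CPM. By TPM I0-E4 did overlap NC, with 854 to 964 against 763 to 868, and I2-E2 did not, with 901 to 903. The log2 fold changes were 0.22 (SE 0.08) in I0-E4 and 0.21 (SE 0.08) in I2-E2, with edgeR adjusted p-values of 0.61 and 0.64. In I0-E0, replicate 1 reached 1031 CPM while replicates 2 and 3 had 834 and 858, within the NC range. Without that replicate the log2 fold change of I0-E0 went from 0.09 to -0.0100. In I0-E2 the values were 846, 960 and 941 CPM, which overlapped NC.

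Vim, the most abundant of the genes, had the lowest spread of the 5 in the NC of batch 1. NC had 1689, 1677 and 1671 CPM, a spread of 9.07 (SD, n = 3) or 0.540% of the mean, where counting error alone is 0.871%. Every library of I0-E0 (1832, 1696 and 1715 CPM), I0-E2 (1724, 1811 and 1836) and I0-E4 (1920, 1823 and 1772) lay above them. The I2-E2 libraries, at 1744, 1820 and 1667 CPM, overlapped NC. The largest difference, in I0-E4, was 0.13 on the log2 scale with a 95% confidence interval of 0.03 to 0.23 and an edgeR adjusted p of 0.61. On the log2(TPM + 0.5) scale with limma it was 0.03, since the I0-E4 values of 1958, 1689 and 1875 TPM straddled the NC values of 1817, 1778 and 1819.

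Nefh, the heavy neurofilament subunit, and Ina, its possible partner in filaments, differed little from NC in batch 1. Nefh had 119, 114 and 119 CPM in NC. The highest value in batch 1 was 133 CPM, in I0-E4 replicate 1, and I0-E2 and I0-E4 lay above NC without overlap by CPM. By TPM both overlapped NC, which had 45.7 to 48.1, since I0-E2 had 46.5 to 51.9 and I0-E4 45.1 to 49.9. The log2 fold changes of I0-E2 and I0-E4 were 0.10 (SE 0.06) each, with edgeR adjusted p-values of 0.99 and 0.66. Ina had 201.03, 186 and 192 CPM in NC, and no group of batch 1 lay apart from it. Its lowest library was I0-E4 replicate 2 with 169 CPM and its highest I2-E2 replicate 3 with 216. The log2 fold changes of Ina against NC ran from -0.07 in I0-E4 to 0.04 in I0-E0. The 95% confidence intervals of Ina in the 4 comparisons stayed between -0.22 and 0.19, and those of Nefh between -0.08 and 0.22. The first exon of Ina overlaps Nt5c2 on the opposite strand, a gene at 36.7 to 46.9 TPM in batch 1, and 86.73% of the 31-base words of Ina are found on neither strand of another gene.

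**Figure D3:**
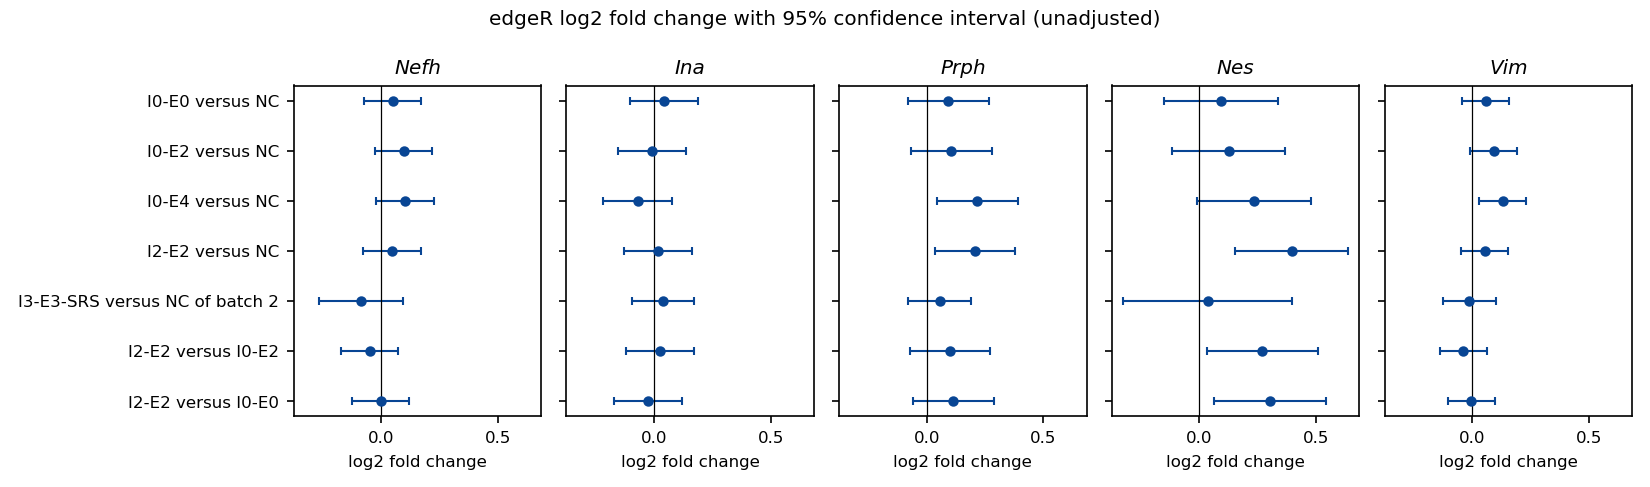
Log2 fold change of the 5 tested genes (horizontal axis) in 7 comparisons between 2 groups, with the 95% confidence interval from edgeR before any adjustment for multiple tests. The interval lies above 0 for Prph and Vim in I0-E4, for Prph and Nes in I2-E2 against NC, and for Nes against I0-E2 and I0-E0.

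Counted by CPM over the 5 genes, the exposed libraries lay wholly above those of NC for 1 gene in I0-E0 and 2 in I0-E2. They did so for 3 genes in I0-E4 and 2 in I2-E2. No gene lay wholly below NC in any of these settings. Groups did not overlap, in either direction, for 8.89%, 11.7%, 13.8% and 12.4% of all genes with a mean of at least 10 CPM in these comparisons. The same count was 1 for I2-E2 against I0-E0, where the share of all genes was 9.81%, and 0 for I2-E2 against I0-E2, where it was 9.35%. The median log2 fold change of the 5 genes was 0.06 in I0-E0, 0.10 in I0-E2, 0.13 in I0-E4 and 0.05 in I2-E2, and the median over all genes tested was 0.00354, 0.000667, 0.00293 and 0.00395 in the same order.

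The trend on fluency asked whether a gene changed steadily with energy per area at constant intensity, with NC at 0 and the 3 groups of the I0 intensity above it. Prph and Vim had positive slopes of 0.019 (SE 0.0073) and 0.012 (SE 0.0040) on the log2 scale per 10 J/cm2, with edgeR adjusted p-values of 0.45 and 0.44. The slope of Nes was 0.021 (SE 0.0096, edgeR adjusted p = 0.50), that of Nefh was 0.0093 (SE 0.0053) and that of Ina was -0.0095 (SE 0.0054). At an unadjusted p under 0.05 there were 3 of the 5 genes, Prph, Nes and Vim, and 1182 of all 12182 genes tested. The slope of Vim on the log2(TPM + 0.5) scale was 0.00026.

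Properties of the libraries moved with these genes. Over the 15 libraries of batch 1, the log2 CPM of Prph followed the share of reads on transcripts under 600 bases with a Pearson r of 0.67, that of Vim with 0.67 and that of Nes with 0.55, while Ina went the other way with -0.79 and Nefh gave 0.12. That share was 3.28% to 3.57% in NC, 3.27% to 3.67% in I0-E0, 3.46% to 3.69% in I0-E2, 3.31% to 4.01% in I0-E4 and 3.199% to 4.20% in I2-E2. The shallowest libraries of batch 1 were I0-E4 replicate 2 and I2-E2 replicate 2, with 5623685 and 5808532 reads. The part of these properties in the differences was not tested.

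The near-burning setting left the filament genes close to the NC of its batch. Prph had 856, 818 and 896 CPM in I3-E3-SRS and 823 and 826 in NC, a log2 fold change of 0.06 (SE 0.06). Vim had 1926, 1845 and 1937 CPM against 1906 and 1931, a log2 fold change of -0.01 (SE 0.05). Ina had 196, 197 and 200 CPM against 188 and 197 (0.04, SE 0.06), Nefh 164, 153 and 163 against 158 and 181 (-0.09, SE 0.08), and Nes 31.1, 26.6 and 23.0 against 29.1 and 23.6 (0.03, SE 0.15). The edgeR adjusted p was 1.0 for each gene, and the groups overlapped for each of the 5. Groups did not overlap for 17.8% of all genes with a mean of at least 10 CPM, a share that does not set 5 genes apart. The 95% confidence interval of Nes was wide, from -0.33 to 0.40. Without NC replicate 1, the library that stood apart, NC had 1 library and the log2 fold changes were -0.18 for Nefh, 0.00450 for Ina, 0.05 for Prph, 0.18 for Nes and -0.02 for Vim, none of which passed. On the log2(TPM + 0.5) scale with limma, with that library in, they were 0.49, 0.61, 0.62, 0.66 and 0.10 in the same order, and none passed either.

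Set side by side, the unexposed cells of the 2 batches differed in some of these genes. NC of batch 1 and batch 2 had means of 117 and 170 CPM for Nefh, 41.2 and 26.4 for Nes, 1679 and 1918 for Vim, 851 and 824 for Prph and 193 each for Ina. All 5 libraries of batch 2 lay above all 15 of batch 1 for Nefh (153 to 181 CPM against 114 to 133) and below them for Nes (23.0 to 31.1 against 37.4 to 62.6). The share of all genes that lie apart between the batches was not computed, so this is not shown to be particular to Nefh and Nes. The batches were scaled and fitted apart, so these values are given without a test. What differs between cultures, library preparation and sequencing cannot be told apart.

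Prph and Vim also differ in which transcript they use. Prph-201 is the main transcript, and Prph-202 keeps intron 4, the 96 bases at chr15:99056937-99057032 on the plus strand. They are shown because they are the whole difference between both proteins. Capitals mark the first and last 2 bases of the intron, which the splicing machinery reads.
Prph intron 4: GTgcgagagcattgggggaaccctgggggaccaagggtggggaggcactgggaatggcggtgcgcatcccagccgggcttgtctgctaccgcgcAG
The intron adds 32 whole codons and holds no stop, so the coding region grows from 475 to 507 codons, which is the longer mouse peripherin known for disturbing filament assembly. Prph-202 took 12.3% to 19.96% of Prph reads in batch 1, with a median of 16.5%, and 15.1% to 20.8% in batch 2. In NC it took 16.4% ± 3.70 (SD, n = 3) and in I2-E2 18.9% ± 1.58, and the 12.3% of the lowest NC library and the 19.5% of the highest bracketed the 17.1% of the lowest I2-E2 library. These shares rest on 660 to 1893 reads that Salmon divided between overlapping transcripts, and no test was made of them.

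Vim was divided among more transcripts. Vim-201, the full transcript, took 64.98% to 77.1% of Vim reads in batch 1, and Vim-206, which lacks exon 8, took 17.1% to 28.0%. Vim-206 also starts later, at base 13574281 against 13573952 for Vim-201. Salmon divided the reads between these overlapping transcripts, so the shares do not measure the loss of exon 8 alone. Exon 8 is printed because its loss shifts the reading frame, its 86 bases at chr2:13581613-13581698 on the plus strand not being a multiple of 3.
Vim exon 8: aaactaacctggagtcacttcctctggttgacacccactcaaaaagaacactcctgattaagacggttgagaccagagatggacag
Vim-206 is annotated with 427 codons in place of 466, so the difference falls in the tail. In the 4 libraries of batch 2 other than NC replicate 1, Vim-206 took 32.7% to 36.4% and Vim-201 57.6% to 61.9%, with no overlap with batch 1. For how many other genes the transcript shares lie apart between the batches was not computed, and no test was made. NC replicate 1 of batch 2 gave Vim-201 only 15.8%, and gave 52.5% to Vim-206, 19.0% to Vim-203 and 11.6% to Vim-204. Vim-203 is a transcript of 535 bases with a retained intron that took 5.35% to 8.35% of reads in batch 1. Being short, it carried 408 to 635 of the TPM of Vim there, while Vim-201 alone had 821 to 984 TPM and Prph-201 alone 621 to 813. The order of Vim above Prph therefore held for the main transcripts too in batch 1, by a smaller margin.

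**Figure D4:**
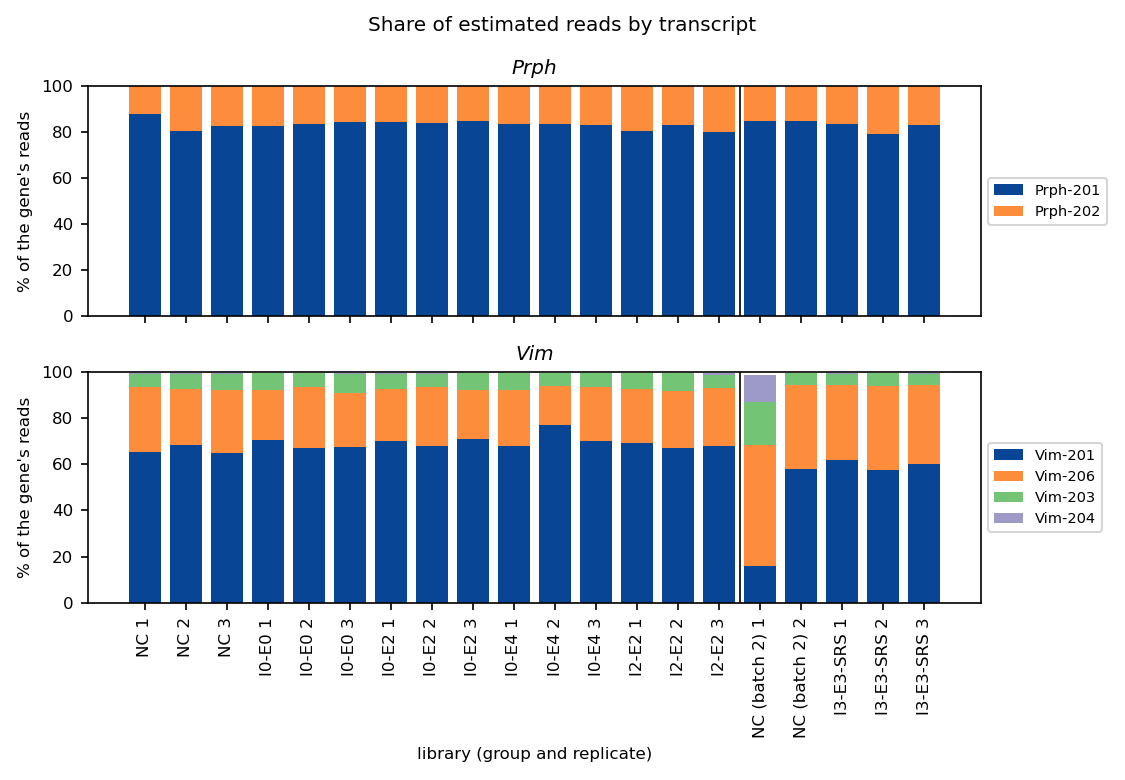
Share of the estimated reads of Prph (top) and Vim (bottom) by transcript, in percent, with 1 bar per library and a line between the batches. Vim-206 takes 17.1% to 28.0% in batch 1, and NC replicate 1 of batch 2 stands apart with 15.8% of Vim-201.

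Nefh, Ina and Nefl have 1 transcript each in the files. Nes was carried by Nes-203, which took 78.4% to 100% of its reads in batch 1, with the rest mostly on Nes-201. With 257 to 448 reads of Nes per library in batch 1, how they are divided is known poorly.

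For each of the 5 genes, the genes with the most similar course over the 15 libraries of batch 1 were found among 9079 genes with a mean of at least 10 CPM. The points share libraries, depth and groups, so the values are descriptions. For Prph they were Pcsk1n, which encodes an inhibitor of a prohormone convertase (Pearson r 0.98, Spearman rho 0.97), and the ribosome biogenesis gene Nop53 (0.98 and 0.98), and without the 2 libraries farthest from the median of Prph r was 0.97 and 0.96. For Vim they were Cct7, a subunit of the chaperonin that folds actin and tubulin (0.94 and 0.95), and the RNA-binding Lin28a (0.93 and 0.96). For Nes they were Ddrgk1 (0.91 and 0.89) and Pitpna (0.90 and 0.94), for Ina Ampd2 (0.87 and 0.83) and Bahcc1 (0.87 and 0.75), and for Nefh Ptges2 (0.85 and 0.76) and Cpsf1 (0.85 and 0.71). Without the 2 libraries farthest from the median of the filament gene, r was 0.60 for Nefh with Cpsf1, 0.64 for Ina with Bahcc1, and 0.79 both for Ina with Ampd2 and for Nes with Ddrgk1, and it was at least 0.83 for the remaining pairs. Among the filament genes themselves, r was 0.81 between Prph and Vim and 0.78 between Prph and Nes. It was -0.41 between Ina and Vim and -0.21 between Ina and Prph.

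The spread within groups differed between the genes too. Over the 5 groups of batch 1 the within-group coefficient of variation was 3.60% for Vim, 4.03% for Nefh, 5.94% for Ina, 8.10% for Prph and 11.1% for Nes. Counting error accounts for 0.871% of the mean for Vim and 5.36% for Nes. Nes was more variable than 87.1% of the 2761 genes within 1.5-fold of its level, and Prph than 73.1% of 145. Ina was more variable than 59.9% of 1225 such genes, Nefh than 11.9% of 1955 and Vim than 10.4% of 48.

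The lists of genes that act on filaments gave no call either. The lists held other intermediate filament genes, the plakin linkers that tie filaments to other structures, and the motors that carry neurofilaments along axons. They also held the kinases and phosphatases of filament tails and rods, and chaperones and ligases of filament turnover. Further lists held genes listed for binding neurofilament mRNA, and neuronal, progenitor and N2A markers. The REST list held the complex that represses neuronal genes, together with Scrt1 and Insm1. No member passed an edgeR adjusted p of 0.05 in any of the 9 comparisons. The most abundant members of single lists included Cdk1 (566 TPM), a kinase that phosphorylates vimentin and lamins in mitosis, Hdac2 (303) in the REST list and the chaperone Hspb8 (183). In the list for neurofilament mRNA they were the superoxide dismutase Sod1 (1088 TPM) and Hnrnpk (987). The motor light chain Klc1 (147) and the linkers Dst (46.2), Macf1 (41.8) and Plec (22.4) led their lists.

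Among the other filament genes, single lamins had the smallest p-values in I2-E2 and I0-E4. In I2-E2 against NC, Lmnb2 had a log2 fold change of 0.31 (SE 0.07, edgeR unadjusted p = 0.000265, adjusted p = 0.60), and Lmna and Bfsp1 (-0.98, SE 0.29) also had an unadjusted p under 0.05, so that 3 of the 5 list members tested did. In I0-E4, Lmna had 0.30 (SE 0.07, edgeR unadjusted p = 0.000713, adjusted p = 0.61), and the same held for all 3 lamins. Over all 12296 genes tested, 884 did in I2-E2 and 973 in I0-E4. Lmna and Lmnb2 also did in I0-E0 (Lmnb2 0.26, SE 0.07) and I0-E2 (Lmna 0.23, SE 0.07), beside 413 of all genes in each. The number was 0 of 5 for I2-E2 against I0-E0 (752 of all genes), 2 of 5 against I0-E2 (645) and 0 of 6 for I3-E3-SRS (484). The median of the 5 list members tested was 0.13 in I2-E2 and 0.15 in I0-E4 against NC, beside medians over all genes tested of 0.00395 and 0.00293. Of the linkers, all 5 tested had positive log2 fold changes in I2-E2, and 0 had an unadjusted p under 0.05. The values ran from 0.000469 in Macf1 to 0.91 in Evpl, which had at most 14 reads in a library. Of all 12296 genes tested, 6294 had positive log2 fold changes in I2-E2. The 16 kinases and phosphatases had a median of -0.01 and the 12 genes of the REST list 0.02 in I2-E2.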

How the data were processed

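RNA-seq of N2A cells gave 20 libraries in 2 batches, grouped by their titles. The laser settings were taken from the study's text. For each transcript the deposited files give estimated counts and TPM, which the authors made with Salmon. Its version and options, the genome build and the handling of strand were not given in the sources used here. Transcripts were matched without their version to GENCODE vM21 (GRCm38), which held 98.6% of 107368, and both values were summed per gene. The 2 Prph transcripts differ in length from vM21, so the authors' release was another one.

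The estimated counts were rounded to whole numbers and tested with edgeR 4.0.16 in R 4.3.3 (filterByExpr with a minimum count of 10, TMM, glmQLFit and glmQLFTest), each batch apart, with adjustment over all genes and a threshold of 0.05. Total counts were 5473588 to 12698770 per library. The study used limma. DESeq2 1.42.0, limma 3.58.1 on voom values and on log2(TPM + 0.5), other scalings, no filter, 2 groups alone, a replicate block and leaving out each library were tried as alternatives. Leaving out NC replicate 1 of batch 2 was singled out after seeing the data. Intervals and shares were computed in Python 3.11.15 with scipy 1.17.1.

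The 7 genes, the gene lists and the comparisons were chosen with earlier results of these data known. The 7 genes are named in each comparison. For each of the 7 with at least 10 CPM the 2 genes with the highest r over batch 1 are named, and from the lists up to 3 with the highest TPM. Other list members and libraries were named after their values were seen. The tests were checked on simulated data.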

Additional observations from a re-analysis of the deposited data

How the results depend on the processing

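Of 575 log2 fold changes or slopes of a filament gene under an alternative, 553 kept their direction and 22 turned it. None of the 5 genes passed under any alternative other than 1, Nes in I2-E2 against NC with no filter on low counts (log2 fold change 0.38, edgeR adjusted p = 0.020), which made the number of filament genes called 1 in place of 0. The values that turned had lain between -0.09 and 0.09. On log2(TPM + 0.5) with limma, I2-E2 against NC gave -0.017 for Nefh and -0.051 for Ina, I2-E2 against I0-E2 gave -0.015 for Ina, and I3-E3-SRS, where the library that stands apart enters, gave 0.49 for Nefh and 0.10 for Vim and also moved Ina to 0.61, Prph to 0.62 and Nes to 0.66, none of which passed. With library totals, Ina in I2-E2 against NC was -0.00095 and Vim in I3-E3-SRS was 0.0011. Leaving out 1 library at a time gave ranges of -0.0100 to 0.15 for Prph in I0-E0, -0.036 to 0.022 for Ina in I0-E2, and -0.070 to 0.073 for Ina in I2-E2. For I3-E3-SRS the ranges were -0.18 to 0.025 for Nefh, -0.12 to 0.18 for Nes and -0.025 to 0.0096 for Vim. Against I0-E2, Ina in I2-E2 ranged from -0.061 to 0.084. Against I0-E0, I2-E2 ranged from -0.033 to 0.029 for Nefh, -0.11 to 0.029 for Ina and -0.036 to 0.026 for Vim. The cause of these changes was not tested.

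Over all genes tested, the count of calls was 0 in each comparison and rose without a filter to 110 in I0-E0, 46 in I0-E2, 172 in I0-E4, 160 in I2-E2, 194 in I3-E3-SRS, 353 for any difference, 125 for I2-E2 against I0-E2, 91 against I0-E0 and 2 for the trend. DESeq2 called 1 in I0-E0, 1 in I0-E4, 15 in I3-E3-SRS, 3 for any difference, 4 and 2 for I2-E2 against I0-E2 and I0-E0 and 2 for the trend. Library totals gave 1 against I0-E0, limma on TPM gave 1 in I3-E3-SRS and 2 groups alone gave 2 against I0-E2. Leaving out 1 library gave 0 to 1 in each of the 3 settings of the I0 intensity and for I2-E2 against I0-E0, 0 to 2 in I2-E2 and for any difference, 0 to 35 for the trend (35 without I0-E4 replicate 3) and 0 to 671 in I3-E3-SRS (671 without NC replicate 2, when the NC library that stands apart is alone and is assumed to vary like the exposed group). The replicate numbers gave no sign of pairing the samples. In batch 1, deviations of same-numbered libraries correlated with r from -0.43 to 0.43 over 30 pairs, and other-numbered ones from -0.42 to 0.42 over 60. In batch 2 the ranges were -0.05 to -0.01 over 2 pairs and -0.03 to 0.05 over 4, too few to judge. The replicate block gave 6 calls over all genes in I3-E3-SRS and no other call, and no filament gene among them. With 2 NC libraries in batch 2, that comparison has 3 residual degrees of freedom, and Nefl and Nefm are too shallow for any comparison.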
